A study of Homo sapiens with 32 samples.

Results

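HNF4α peaks at the ends of protein-coding genes were the peaks of each list whose summit lay within 1000 bp of either end of a GRCh38 protein-coding gene. They made up 38808 of the 337294 peaks in 18 lists, and the other 298486 peaks lay elsewhere. Both ends were used because the RefSeq gene table carries no strand. A table of RefSeq promoter windows gave strand and start for 79.1% of the 20037 genes, and among end peaks of these genes 74.4% to 89.7% per pan-antibody list lay at the 5′ end.

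HNF4α was mapped by chromatin immunoprecipitation and sequencing in 3 established human pancreatic ductal adenocarcinoma lines, grown in 2D culture. Each of 9 groups had 2 libraries, and each library had its own peak list. Panc10.05 cells carried inducible P1-α2 at 25 ng/mL doxycycline or inducible P2-α8 at 12.5 ng/mL, so isoform and dose cannot be told apart in that line. BxPC3 cells carried inducible P1-α2 or P2-α8, both at 500 ng/mL doxycycline. The titles of the BxPC3 P2-α8 libraries read P1-a8 and their genotype label P2-a8; the genotype label was used, and every BxPC3 isoform value rests on it. AsPC1 cells carried the guide RNA genotypes sgNC, sgP1 or sgP2, with no doxycycline in their labels. All these groups were precipitated with an antibody to HNF4α of either isoform class (the pan antibody, PP-H1415). The AsPC1 sgNC and sgP2 genotypes were also precipitated with an antibody to the P1 class (the P1 antibody, PP-K9218). The cells of every group were crosslinked with disuccinimidyl glutarate and formaldehyde, and the 14 input libraries were not analysed here. Line and sequencing series coincide in the library names and cannot be told apart, and neither can line and doxycycline dose between Panc10.05 and BxPC3. Nothing in the labels says whether replicates came from separate cultures, so p-values measure the spread between these libraries, which may be technical.

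HNF4α is a nuclear receptor that binds DNA as a homodimer and activates genes of liver, gut and pancreatic epithelium. Its gene has a proximal promoter, P1, and a distal promoter, P2, and the P1 and P2 isoform classes begin with different N-terminal sequence. Promoters of housekeeping genes are mostly rich in CG dinucleotides and active in every cell type, while many targets of HNF4α in metabolism and epithelial function have promoters poor in CG. The HNF4 recognition site is a direct repeat whose core reads CAAAGTNCA, with the letter at N free.

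This core stands in some of the promoter windows with a summit in every pan-antibody list. RefSeq promoter windows on GRCh38.p14 run from 250 bases before to 50 bases after a start. Of these windows 53 held a summit in all 14 pan-antibody lists, and 14 of the 53 held CAAAGTNCA on either strand. In 13 of those 14 windows the median summit lay within 50 bp of the core, the exception being CD68 at 200.5 bp. The 8 cores shown, with 25 bases on each side, lie wholly before the start and outside the span of the window's own gene. Overlap with other genes was not checked. The stretches run 5′ to 3′ on the gene's strand, to show the site under the summit. Capitals mark CAAAGTNCA or its reverse complement.
SELENOP (chr5:42811933-42811991, minus strand): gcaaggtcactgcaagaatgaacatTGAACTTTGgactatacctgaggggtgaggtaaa
MAP3K11 (chr11:65614222-65614280, minus strand): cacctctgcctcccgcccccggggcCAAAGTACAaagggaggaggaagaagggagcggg
BTNL8 (chr5:180898994-180899052, plus strand): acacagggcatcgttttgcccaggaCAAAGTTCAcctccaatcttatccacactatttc
CLRN3 (chr10:127892957-127893015, minus strand): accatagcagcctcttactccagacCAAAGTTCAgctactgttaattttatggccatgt
TREH (chr11:118679690-118679748, minus strand): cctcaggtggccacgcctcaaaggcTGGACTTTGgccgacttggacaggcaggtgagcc
PTGR2 (chr14:73851652-73851710, plus strand): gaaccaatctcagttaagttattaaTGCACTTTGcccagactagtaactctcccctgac
MAN2C1 (chr15:75368712-75368770, minus strand): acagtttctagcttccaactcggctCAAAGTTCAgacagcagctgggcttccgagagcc
ACSS2 (chr20:34874916-34874974, plus strand): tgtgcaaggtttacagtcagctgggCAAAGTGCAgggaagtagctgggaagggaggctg
Median summits lay 12.5 bp from the core at MAP3K11, 16.0 bp at CLRN3 and 38.5 bp at PTGR2. For contrast, 3 windows with a summit in every pan-antibody list and no match to the core are shown around their median summit. They are the 3 of highest mean percentile whose stretch lies before the start and outside the span of their own gene.
CREB3L3 (chr19:4153429-4153487, plus strand): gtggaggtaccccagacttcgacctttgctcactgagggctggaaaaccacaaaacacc
IL32 (chr16:3065211-3065269, plus strand): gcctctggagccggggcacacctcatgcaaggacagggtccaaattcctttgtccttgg
TRIM15 (chr6:30163342-30163400, plus strand): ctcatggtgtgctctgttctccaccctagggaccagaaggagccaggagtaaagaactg
No match says only that these 9 letters are not in the window.

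The lists differed in length, which touches every count below. There were 24828 to 39111 peaks per Panc10.05 list, 12681 to 41808 per BxPC3 list and 11686 to 24295 per AsPC1 pan-antibody list. The P1-antibody lists held 260 to 5200 peaks. The weakest peak of each Panc10.05 and BxPC3 list had a −log10 q of 8.00 to 8.04, and that of each AsPC1 list 2.00 to 2.02, so the AsPC1 lists reach further down in significance. Read depth is unknown from peak lists.

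The share of peaks at gene ends separated the 3 lines. In Panc10.05 it was 10.0% and 11.1% with P1-α2 and 13.0% and 10.7% with P2-α8. In BxPC3 it was 6.31% and 5.80% with P1-α2 and 6.15% and 5.33% with P2-α8. In AsPC1 with the pan antibody it was 18.8% and 16.2% in sgNC, 16.9% and 17.5% in sgP1, and 17.2% and 18.1% in sgP2. Every AsPC1 value was thus above every Panc10.05 value, and every Panc10.05 value above every BxPC3 value. Moving each summit by 100 kb in either direction left 3.46% to 5.77% at gene ends, below the measured share in each list. The BxPC3 lists stood closest to that background, at 3.70% to 4.01% after the move to the right.

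**Figure D1:**
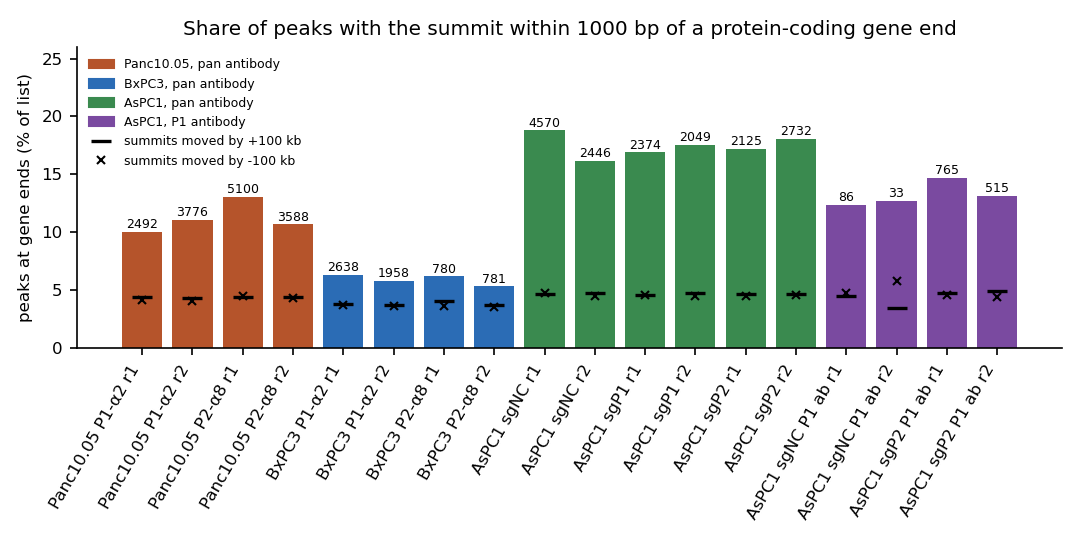
Bars give the percentage of each list's peaks with the summit within 1000 bp of a protein-coding gene end, with the number of such peaks above each bar; dashes and crosses give the same percentage after all summits were moved by 100 kb. The 6 AsPC1 pan-antibody lists sit between 16.2% and 18.8%, above the 4 Panc10.05 lists (10.0% to 13.0%) and the 4 BxPC3 lists (5.33% to 6.31%).

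Panc10.05 lists had 11.2% ± 1.30 of their peaks at gene ends (SD, n = 4) and BxPC3 lists 5.90% ± 0.436 (SD, n = 4). The difference was 5.30 percentage points, with no overlap between lines (two-sided exact permutation test over libraries, p = 0.0286, the smallest that 4 against 4 allows). Adjusted over the 10 comparisons of shares, p was 0.143 in this exact test. With every list cut to its 12681 peaks of highest fold enrichment the shares were 8.54% and 5.10%.

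AsPC1 pan-antibody lists had 17.5% ± 0.917 of peaks at gene ends (SD, n = 6), against 8.55% ± 2.97 in the lists of the induced lines (SD, n = 8). This difference of 8.91 points gave p = 0.000333 in the exact permutation test, the smallest it can give, and 0.00333 after Benjamini-Hochberg adjustment. At an equal length of 11686 peaks the shares were 16.4% and 6.74%. The labelled mode of expression and the line both differ between these groups and cannot be told apart. Keeping only peaks whose −log10 q reached 8 or 20 in every list, the difference was 7.61 points (exact permutation p = 0.000999) or 7.41 points (exact permutation p = 0.000333).

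Within a line, no difference in share between isoforms or genotypes could pass a test, and at full list length those with the pan antibody were at most 1.30 points in size. P1-α2 minus P2-α8 was −1.30 points in Panc10.05 (exact p = 0.667, n = 2 and 2) and 0.32 points in BxPC3 (exact p = 0.667, n = 2 and 2), with overlapping groups in both lines. The difference of these isoform differences was −1.62 points (exact permutation within lines, p = 0.278). In AsPC1, sgP1 minus sgNC was −0.27 points, sgP2 minus sgNC 0.15 points and sgP1 minus sgP2 −0.42 points, each smaller than the gap between the sgNC replicates. At equal length the groups no longer overlapped in 3 of these 5 comparisons: sgP1 exceeded sgNC by 1.83 points, sgP2 exceeded sgNC by 1.76 points, and BxPC3 P1-α2 minus P2-α8 was −0.883 points (exact p = 0.3333 each). The comparisons with sgNC share its 2 libraries. A comparison of 2 against 2 libraries cannot reach p below 0.3333, so equal shares are not shown.

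With the P1 antibody, 12.3% and 12.7% of sgNC peaks and 14.7% and 13.2% of sgP2 peaks lay at gene ends. These are 86 and 33 peaks in sgNC and 765 and 515 in sgP2. The mean of 13.2% ± 1.05 (SD, n = 4) stood against 17.6% ± 1.13 (SD, n = 4) with the pan antibody in the same genotypes, a difference of −4.35 points without overlap. The exact permutation test within genotypes gave p = 0.0556, the smallest it can reach, and 0.185 after adjustment. With every list cut to its 260 strongest peaks the means were 14.4% and 15.3%, and the ranges overlapped. The P1-antibody share was 1.42 points higher in sgP2 than in sgNC (exact p = 0.3333, n = 2 and 2).

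Summits were spread over the window around the gene end. In the first Panc10.05 P1-α2 list 17.7% of them had the summit within 100 bp, 23.5% at 101 to 250 bp, 26.2% at 251 to 500 bp and 15.3% at 751 to 1000 bp. Between 12.3% and 17.0% of the end peaks of each pan-antibody list served 2 or more genes, as at divergent promoters, so genes that share a peak are not independent. In the 100 bp just inside the 1000-bp limit the same list had 136 summits, and in the 100 bp just outside it 150, with median percentiles of fold enrichment within the list of 47.8 and 45.7. Of the end peaks at stranded genes 81.0% to 84.5% lay at the 5′ end for Panc10.05. The range was 74.4% to 77.5% for BxPC3 and 87.8% to 89.7% for AsPC1 with the pan antibody.

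Gene-end peaks ranked below other peaks with the pan antibody. A peak's rank was its percentile of fold enrichment within its own list, 100 being the strongest. The median percentile of end peaks minus that of other peaks was −8.87 and −15.5 in Panc10.05 P1-α2 and −15.1 and −15.4 in Panc10.05 P2-α8. It was −11.2 in both BxPC3 P1-α2 lists and −5.90 and −9.55 in BxPC3 P2-α8. It was −11.5 and −8.66 in AsPC1 sgNC, −4.78 and −5.01 in sgP1, and −5.25 and −7.86 in sgP2. All 14 pan-antibody lists were thus below 0, with a mean of −9.70 ± 3.81 (SD, n = 14; exact sign-flip test over lists, p = 0.000122, the smallest that 14 lists allow). In this and later tests over the 14 lists, these come from 3 lines and share many peaks, so they are not 14 independent values. The size of the difference depended on list length. With every list cut to its 11686 peaks of highest fold, the difference was −6.30 to −4.62 in AsPC1 and −7.38 to −0.695 in the induced lines. The induced-line mean was then −2.75, against −11.6 at full length. In fold enrichment, end and other peaks had medians of 12.1 and 13.5 in the first Panc10.05 P1-α2 list and of 5.968 and 6.996 in the first sgNC list.

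With the P1 antibody the values were above 0, but their sign moved with the settings. The percentile difference was 5.60 and 2.31 in sgNC and 1.14 and 1.16 in sgP2, all 4 above 0 (exact sign-flip p = 0.125, the smallest that 4 lists allow). Ranked by −log10 p, 2 of these 4 lists were above 0 and 2 below. With promoter-table starts only, both sgNC lists were below 0, at −6.03 and −8.27. With −log10 q limits of 8 and 20 the second sgP2 list was at −2.28 and −6.10. The P1 antibody exceeded the pan antibody in the same genotypes by 10.9 percentile points without overlap (exact permutation p = 0.0556, the smallest possible; adjusted 0.25). At an equal length of 260 peaks the means were 2.40 and 1.83, with overlapping ranges, so the antibody difference did not hold between lists of equal length. Panc10.05 minus BxPC3 lists was −4.25 points (exact permutation p = 0.114), and −5.87 points without the first Panc10.05 P1-α2 list (exact permutation p = 0.0286). The sign of this difference was not stable: it was 1.09 points at equal length and 2.18 points among peaks whose −log10 q reached 20. AsPC1 pan-antibody lists were 4.41 points closer to 0 than the induced lines (exact permutation p = 0.0286, adjusted 0.25), and at equal length the difference was −2.33. Without the first or second sgP1 list or the first sgP2 list it was 3.93 to 4.02 (exact permutation p = 0.0521 to 0.0575).

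The same pattern showed along the range of fold enrichment. In each pan-antibody list the quintile of lowest fold held a larger share at gene ends than the quintile of highest fold, with means over 14 lists of 16.5% and 9.85%. In the first Panc10.05 P2-α8 list it fell from 20.9% to 9.46%, and in the first sgNC list from 24.9% to 13.5%. The fall was not even in every list. In the first Panc10.05 P1-α2 list the lowest quintile had 15.0%, the next 9.16% and the highest 8.45%. In both BxPC3 P2-α8 lists the highest quintile, at 5.68% and 4.17%, was above the next lower one, at 5.01% and 3.97%. In none of the 4 P1-antibody lists was the lowest quintile above the highest.

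**Figure D2:**
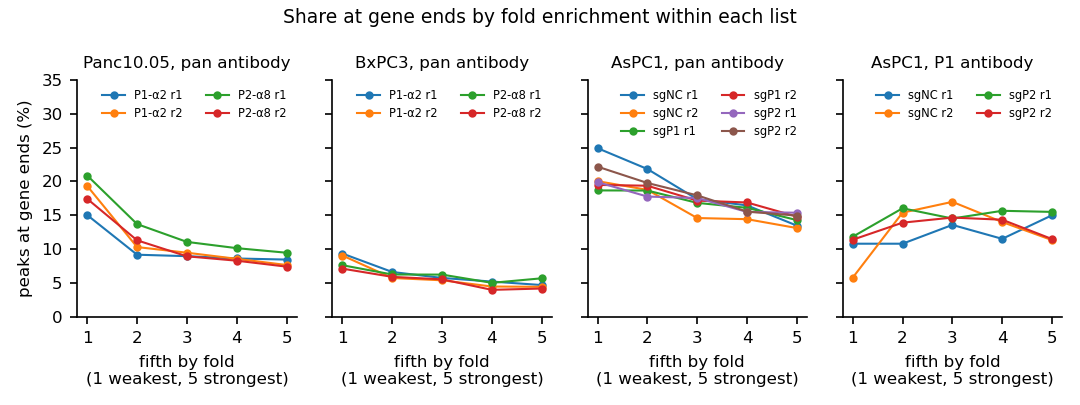
Each line is a peak list cut into 5 equal parts by fold enrichment (x axis, 1 weakest to 5 strongest), and the y axis is the percentage of peaks at gene ends in each part. Part 1 lies above part 5 in each of the 14 pan-antibody lists and in none of the 4 P1-antibody lists, whose parts hold 50 to 1048 peaks.

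End peaks were slightly wider than other peaks in Panc10.05. Their median width was 471 to 560 bp against 452 to 491 bp for other peaks, a log2 ratio of 0.12 ± 0.05 (SD, n = 4). In BxPC3 the medians were 346 to 422 bp and 342 to 419 bp, a log2 ratio of 0.00 ± 0.02 (SD, n = 4). The 2 lines did not overlap in this ratio at full list length (exact permutation p = 0.0286, the smallest possible; adjusted 0.257). At an equal length of 12681 peaks they overlapped, at 0.107 to 0.266 in Panc10.05 and −0.00380 to 0.113 in BxPC3. Without any 1 of the BxPC3 lists the difference was 0.114 to 0.125 (exact permutation p = 0.0571). In AsPC1 with the pan antibody the ratio was 0.01 to 0.06. Over all pan-antibody lists end peaks were wider in 12 of 14 (mean log2 ratio 0.05; exact sign-flip p = 0.0011), but with a 500-bp limit they were wider in 8 of 14 (p = 0.136 in the exact test).

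Gene-end peaks touched 8017 of the 20037 protein-coding genes in at least 1 list, 40.0%, and 26 genes in all 18 lists. At least 1 pan-antibody list had an end peak at 7997 genes, and every pan-antibody list at 307 genes (1.53%), while 1858 genes had one in exactly 1 pan-antibody list. Every Panc10.05 list had an end peak at 2198 genes (11.0%), every BxPC3 list at 532 (2.66%) and every AsPC1 pan-antibody list at 1395 (6.96%). Panc10.05 and BxPC3 shared 438 of these genes, which is 19.9% of the Panc10.05 genes and 82.3% of the BxPC3 genes. Panc10.05 and AsPC1 shared 950, or 43.2% and 68.1%, and BxPC3 and AsPC1 shared 333, or 62.6% and 23.9%.

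The strongest peaks shared by every pan-antibody list stood at genes of several functions. LRP5, a co-receptor of Wnt signalling, had a peak at its start (chr11:68297724-68298791) with a percentile of 98.5 to 99.95 in the pan-antibody lists and a fold enrichment of 138 in the second Panc10.05 P1-α2 list. Its percentiles with the P1 antibody were 97.1 and 94.6 in sgNC and 99.3 and 99.5 in sgP2. PAOX, a polyamine oxidase, had 93.0 to 100.0 with the pan antibody, lowest in the 2 Panc10.05 P2-α8 lists, and at least 99.6 with the P1 antibody. LRP5 was thus near the top of all 18 lists, and PAOX of all but those 2.

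SMIM24, which encodes a small membrane protein, had its peak at the 3′ end of the gene, at 88.8 to 99.96 with the pan antibody. QNG1, ACY3 (an aminoacylase), SOS1 (an activator of RAS), SELENOP (a plasma selenoprotein made in liver), MAP3K11 (a kinase of the JNK pathway), CREB3L3 (a liver and gut transcription factor of lipid metabolism) and the predicted gene LOC124901228 completed the 10 of highest mean percentile, at 98.1, 97.7, 97.6, 95.8, 95.8, 95.7 and 96.5. SOS1 had lower percentiles with the P1 antibody, at 65.0 and 46.0 in sgNC and 75.6 and 65.6 in sgP2, than with the pan antibody, at 85.8 to 99.7. The P1-antibody lists held 260 to 5200 peaks and the pan-antibody lists 11686 to 41808. SOS1 was also named by its pan-antibody percentiles, so these values do not compare the strength of binding between antibodies. Among genes with an end peak in all 18 lists the next by mean percentile were ATXN7L1 at 95.4 and FAM83H at 95.2.

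**Figure D3:**
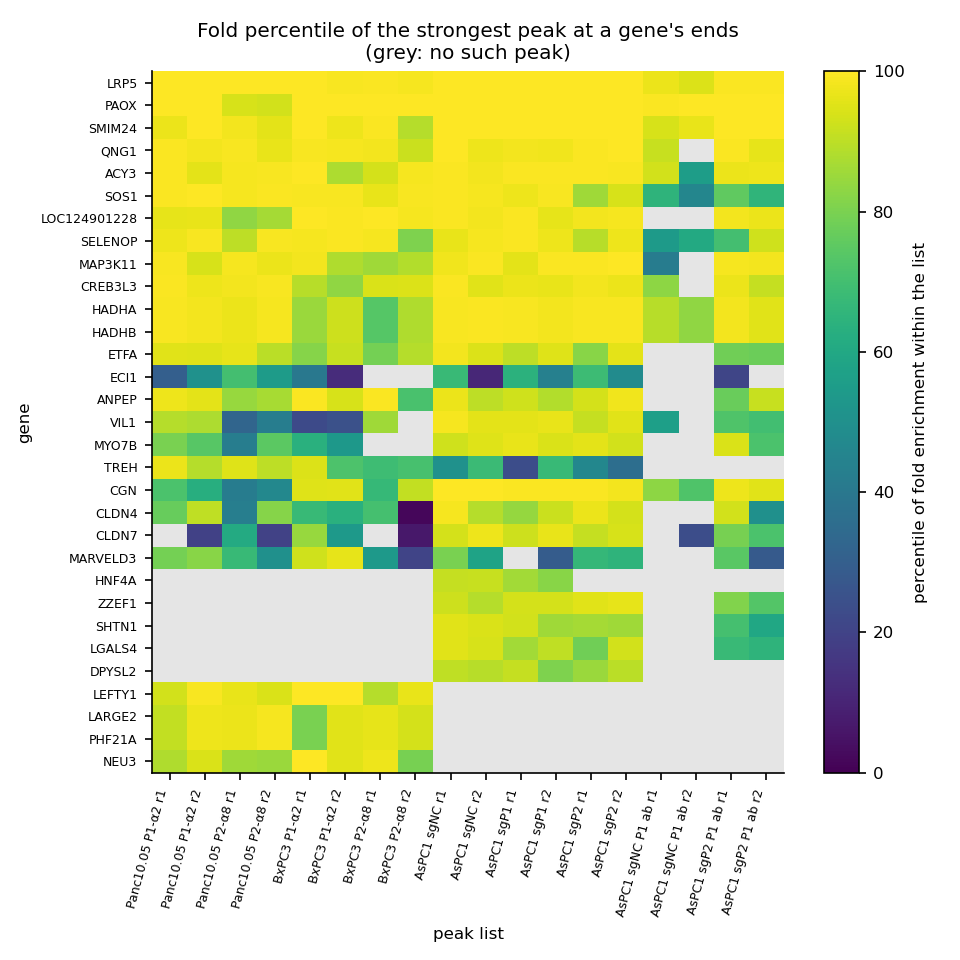
Each row is a gene and each column a peak list; colour gives the percentile of the gene's strongest end peak by fold enrichment, and grey means no end peak. LRP5 and PAOX are at 93.0 or above in all 18 lists, HNF4A is coloured only in the 2 sgNC and 2 sgP1 lists with the pan antibody, ZZEF1, SHTN1, LGALS4 and DPYSL2 in AsPC1 lists alone, and LEFTY1, LARGE2, PHF21A and NEU3 only in the induced lines.

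HNF4A itself had an end peak in 4 of 18 lists, at its outer RefSeq start, the distal P2 promoter (chr20:44354883-44355736 in the second sgNC list). Its percentile was 91.0 and 91.5 in sgNC and 86.0 and 82.4 in sgP1. The sgP2 lists, the P1-antibody lists and the 8 lists of the induced lines held no such peak, and no sgP2 peak overlapped it. HNF4A led the 284 of 5288 genes with an end peak in both sgNC lists and in neither sgP2 list, 5.37% of the genes with an end peak in any of these 4 lists. Peaks that overlap between lists were merged into regions, and of all 27043 regions 7.2% were in both sgNC lists and neither sgP2 list, a share above that of the genes.

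Of the genes with an end peak in any Panc10.05 list, 111 of 6144 (1.81%) had one in both P1-α2 lists but none in P2-α8, and 522 (8.5%) had the reverse. An end peak in all 4 lists was found at 35.8% of these genes, and 38.0% of all merged regions were in all 4. Over all merged regions these shares were 3.64% and 10.9%. Among the P1-α2 genes NSUN5, an RNA methyltransferase, had percentiles of 62.6 and 84.2, and ATF5, a stress-response transcription factor, 75.9 and 59.3. Among the P2-α8 genes SERPINC1, which encodes antithrombin, had 79.7 and 78.9, and TMEM132A 77.4 and 81.2. At 4 genes that the rule also named (MED29, OSBPL9, ADAM8, MAT1A) both lists of the other isoform held an overlapping peak with its summit beyond the limit. With no overlapping peak on the other side the counts were 99 and 505. Counted as regions, 1.79% of end regions and 3.89% of other regions were in both P1-α2 lists only. In both P2-α8 lists only were 9.04% of end regions and 11.2% of other regions. At equal list length the end-peak counts of genes were 223 and 229. Here and below, region shares are given at full list length and with every list only. Equal-length counts and counts without a list have no such background. Leaving out a list loosens the rule, so such a count can stay or rise but not fall. Without the first P1-α2, first P2-α8 or second P2-α8 list the P1-α2 count was 372, 292 or 168, and without the second P1-α2 or second P2-α8 list the P2-α8 count was 1248 or 1761.

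In BxPC3 830 of 3134 genes (26.5%) had an end peak in both P1-α2 lists but none in P2-α8, and 2 genes (0.0638%) had the reverse. Over all merged regions the shares were 28.2% and 0.129%. All 4 lists had an end peak at 17.0% of the genes, beside 18.3% of all regions. KLF7, a Krüppel-like transcription factor, had 92.6 and 89.6 in P1-α2, and the olfactory receptor gene OR2L3 had 96.4 and 91.4. GOLGA8G and GOLGA8F also led. They and OR2L3 belong to families of near-identical copies between which mapping can split reads, so their values are uncertain. The 2 reverse genes were VBP1 at 26.5 and 48.1 and FASTKD1 at 31.6 and 3.28. The P1-α2 lists held 41808 and 33737 peaks and the P2-α8 lists 12681 and 14666, and at an equal length of 12681 peaks the counts were 62 and 65. Without the second P1-α2 list the first count was 1719, and without the first P1-α2, second P1-α2, first P2-α8 or second P2-α8 list the reverse count was 13, 9, 32 or 32.

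In AsPC1 with the pan antibody 386 of 5240 genes (7.37%) had an end peak in both sgNC lists and in neither sgP1 list, and 18 (0.344%) the reverse. All merged regions gave 8.97% and 0.409%. All 4 lists had an end peak at 30.3% of the genes, against 32.0% of regions. ARNT, the partner of the hypoxia factors, had 91.9 and 82.8 in sgNC, and ATP11A, a phospholipid flippase, 85.0 and 78.8, and neither had an overlapping sgP1 peak. Both had end peaks in both sgP2 lists, ARNT at 44.3 and 38.2 and ATP11A at 68.2 and 72.0. PRAP1 and FAM83C, at higher percentiles, and all 4 leading sgP1 genes (ANKRD40CL, TBL3, SCAF4, RHOBTB3) had an overlapping peak on the other side, so there only the summit's side of the limit differed. At equal length the counts were 99 for sgNC and 147 for sgP1, the reverse order, with no region share at that length. Without the second sgNC or first sgP1 list the sgNC count was 2057 or 696. Without the first sgP1, second sgP1, first sgNC or second sgNC list the sgP1 count was 96, 157, 196 or 40.

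Genes with an end peak in sgP2 but not sgNC numbered 14 of 5288 (0.265%), against 0.407% of all merged regions. All 4 sgNC and sgP2 lists had one at 32.1%, against 34.0% of regions. DYNLT4, TBL3, SCAF4 and AMPD2 led them, each with an overlapping peak in both sgNC lists. Beside HNF4A, the sgNC genes included ERBIN, which binds the receptor ERBB2, at 79.0 and 53.2, with no overlapping sgP2 peak. At equal length the counts were 154 for sgP2 and 81 for sgNC, again the reverse order and with no region share at that length. Without the second sgNC or second sgP2 list the sgNC count was 1830 or 652. Without the first sgP2, second sgP2, first sgNC or second sgNC list the sgP2 count was 200, 97, 245 or 38. Between sgP1 and sgP2, 79 of 3917 genes (2.02%) were in both sgP1 lists and neither sgP2 list and 154 (3.93%) the reverse, beside 2.75% and 4.32% of all merged regions. All 4 lists had one at 37.7% of the genes and 38.0% of regions were in all 4. HNF4A led the sgP1 genes, followed by CLK3-AS1 and by UBA3, the E1 subunit for NEDD8, at 72.1 and 47.5. The histone gene H4C12, at 73.4 and 69.2, and IBTK, at 66.7 and 67.7, were among the sgP2 genes. Without the first sgP1, second sgP1, first sgP2 or second sgP2 list the sgP1 count was 258, 400, 134 or 272 and the sgP2 count 358, 286, 668 or 352.

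With the P1 antibody 373 of 977 genes (38.2%) had an end peak in both sgP2 lists and in neither sgNC list, and 1 gene (0.102%) the reverse. All merged regions gave 36.0% and 0.0638%. All 4 lists had one at 2.87% of the genes, against 3.04% of regions. Counted as regions, 37.1% of end regions and 35.8% of other regions were in both sgP2 lists only. In both sgNC lists only were 0.0% and 0.0741%, and in all 4 lists 3.08% and 3.04%. ABAT, which degrades the transmitter GABA, had 99.3 and 99.0 in the sgP2 lists. LHX1, a homeobox factor, had 96.1 and 97.8, and GDI2, a regulator of RAB proteins, 99.0 and 94.5. The same 3 genes had pan-antibody percentiles of 94.9 to 99.9 in all 6 AsPC1 lists, sgNC included. At an equal length of 260 peaks the counts were 11 and 4. The single reverse gene, PRAP1, had an overlapping peak in both sgP2 lists. Without the second sgP2 list the first count was 761, and without the second sgNC list the reverse count was 3.

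No gene had an end peak in all 4 P1-antibody lists and in none of the 4 pan-antibody lists of the same genotypes (0.0%). Of all 27758 merged regions 0.0% were of this kind too. The second sgNC P1-antibody list had end peaks at only 38 genes, so this count could not be large. The reverse held for 837 of 5321 genes (15.7%), against 15.2% of all merged regions. All 8 lists had an end peak at 0.526% of the genes, against 0.663% of regions. Counted as regions, 15.1% of end regions and 15.2% of other regions were in the pan-antibody lists only. ANKRD26 had pan-antibody percentiles of 89.3 to 97.3 in these 4 lists, FAM78B of 82.1 to 92.4, and DPYSL2, a protein of axon growth, of 85.0 to 90.6, with no overlapping P1-antibody peak. ALAS1, the first enzyme of haem synthesis, was also in this set, with an overlapping peak in 2 P1-antibody lists. At an equal length of 260 peaks the count was 0.

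Between lines, Panc10.05 had 575 of 6674 genes (8.62%) with an end peak in all 4 of its lists and in no BxPC3 list, and BxPC3 had 22 (0.33%) of the reverse kind. Over all merged regions the shares were 5.55% and 2.09%. All 8 lists had one at 6.56% of the genes, against 8.2% of regions. Counted as regions, 8.68% of end regions and 5.22% of other regions were in every Panc10.05 list only, and 0.534% and 2.26% in every BxPC3 list only. Gene ends thus held 14.9% of the Panc10.05 regions and 2.44% of the BxPC3 regions, against 9.54% of all regions.

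PRICKLE1, a protein of planar polarity, had 94.3, 88.0, 92.8 and 85.7 in the Panc10.05 lists and no end peak elsewhere. BHLHA15, a factor of secretory cells, had 79.9 to 96.8 in Panc10.05 and at most 8.72 in AsPC1. The cyclophilin gene PPID had 77.8 to 93.2, and ZNF562, with a peak at its 3′ end, 92.7 to 97.8. On the BxPC3 side SNX31, a sorting nexin, had 93.1, 87.6, 93.9 and 41.2, and BCL9, a Wnt co-activator, 81.8, 92.8, 42.7 and 92.9 at its 3′ end. C16orf96 and CDIP1 share a peak with 82.8, 77.5, 78.6 and 21.0 in BxPC3, which was also present in all 6 AsPC1 pan-antibody lists at 91.0 to 97.4. Without the first Panc10.05 P1-α2 list the Panc10.05 count was 1052, and without the first or second BxPC3 P2-α8 list the BxPC3 count was 51 or 45. At equal length the Panc10.05 count was 128.

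AsPC1 had 73 of 7997 genes (0.913%) with an end peak in all 6 pan-antibody lists and in none of the 8 lists of the induced lines, and 52 genes (0.65%) were the reverse. All merged regions gave 1.19% and 2.45%. All 14 lists had one at 3.84% of the genes, against 2.98% of regions. Counted as regions, 1.25% of end regions and 1.18% of other regions were in every AsPC1 list only. In every induced-line list only were 0.748% of end regions and 2.65% of other regions. LGALS4, a galectin of gut epithelium, had 78.4 to 95.4 in the AsPC1 pan-antibody lists and 67.7 and 64.9 with the P1 antibody in sgP2. ZZEF1 had 89.0 to 96.3, and SHTN1 85.9 to 95.4 at its 3′ end. On the other side LEFTY1, an inhibitor of NODAL, had 93.0 to 99.0 in Panc10.05 and 88.8 to 99.9 in BxPC3, with no end peak in AsPC1. LARGE2 and PHF21A share a peak with 79.7 to 98.8, and NEU3, a sialidase, had 79.4 to 99.8 at its 3′ end. Without the first BxPC3 P2-α8 list the second count was 80, and at equal length the counts were 293 and 24.

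Genes on 1 side only had lower-ranked peaks than genes in every list. The rule for these sets favours weak peaks on 1 side and strong peaks in every list, so this order follows in part from it. In the comparisons of isoforms and of guides with the pan antibody, and on the Panc10.05 side against BxPC3, their median percentile was 24.2 to 38.2 where at least 50 genes were counted. It was 57.0 and 67.1 for the AsPC1 and induced-line genes and 56.4 for the sgP2 genes of the P1 antibody. For the 837 genes with the pan antibody but not the P1 antibody it was 47.5. Over the 9 comparisons genes with an end peak in every list had medians of 57.0 to 90.1.

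Of Panc10.05 end peaks 68.0% ± 7.34 (SD, n = 4) were overlapped by at least 1 bp of a peak in any AsPC1 pan-antibody list, against 35.5% ± 6.10 of other peaks. Of BxPC3 end peaks 70.6% ± 5.37 (SD, n = 4) were overlapped in AsPC1, against 36.9% ± 9.60. End peaks were higher in all 4 lists of each line, and the exact sign-flip p of 0.125 is the smallest that 4 lists allow. BxPC3 end peaks were overlapped in Panc10.05 at 85.0% ± 4.72 (SD, n = 4), against 68.8% ± 7.63. AsPC1 end peaks were overlapped in Panc10.05 at 79.0% ± 4.91 (SD, n = 6), against 66.2% ± 4.17, higher in 6 of 6 lists (exact sign-flip p = 0.0313, the smallest possible).

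Overlap with BxPC3, the line with the smallest share of peaks at gene ends, went the other way. How many end peaks a line's lists hold bears on how many end peaks of another line they overlap. Overlaps and shares are thus not separate findings. Of Panc10.05 end peaks 53.4% ± 11.1 (SD, n = 4) were overlapped by a BxPC3 peak, against 67.4% ± 5.94 of other peaks, lower in 4 of 4 lists. Of AsPC1 end peaks 53.4% ± 7.59 (SD, n = 6) were overlapped, against 63.5% ± 4.95, lower in 6 of 6 lists (exact sign-flip p = 0.0313). The Benjamini-Hochberg adjusted p of these 6 exact tests was 0.192 over 20 comparisons. Among peaks above the median fold the overlap of Panc10.05 with AsPC1 stayed at 75.8% of end peaks and 42.2% of others. The overlap with BxPC3 then differed little, at 77.4% and 78.9% for Panc10.05 and 74.2% and 76.5% for AsPC1 (exact sign-flip p = 0.0625). Between replicates, the overlap of end peaks minus that of others was −3.09 points over 14 pan-antibody lists, and 0.52 points above the median fold (exact sign-flip p = 0.0436 and 0.388, adjusted 0.192 and 0.508).

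**Figure D4:**
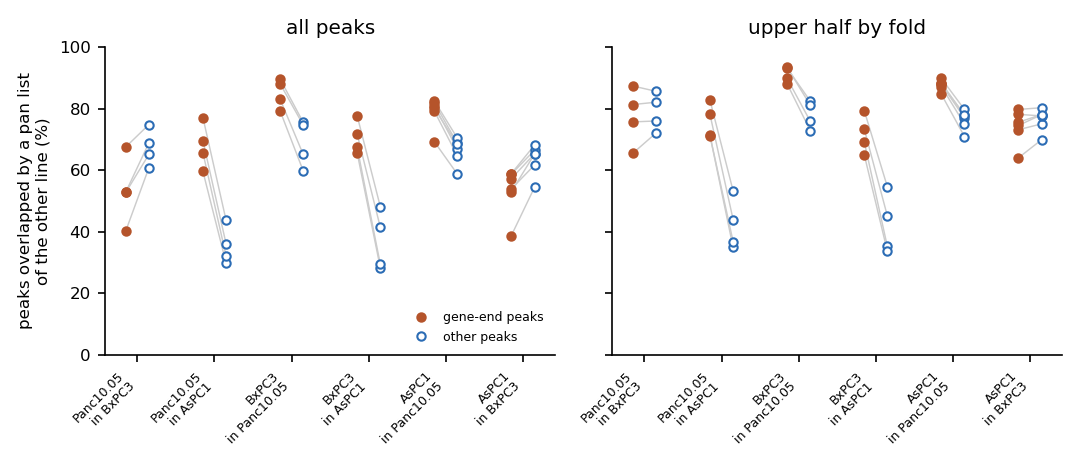
Each pair of joined points is a pan-antibody list of the first-named line: the percentage of its gene-end peaks (filled) and of its other peaks (open) overlapped by a peak in any pan-antibody list of the second-named line. On the left, for all peaks, filled points lie above open points for overlap with AsPC1 and with Panc10.05 and below them for overlap with BxPC3; on the right, among peaks above the median fold, the BxPC3 gap is within 3 points on average.

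Promoter windows of the 15843 genes with a RefSeq start gave a sequence view of the same peaks. CAAAGTNCA stood in 208 of 22199 windows of the same length, 0.937%. It stood in 3.08% of 3246 windows with a summit in at least 1 pan-antibody list and in 0.57% of the 18953 windows with none. Windows with a summit in every pan-antibody list of a line held it at 8.16% in Panc10.05 (392 windows), 26.3% in BxPC3 (99 windows) and 12.1% in AsPC1 (264 windows). Of the 53 windows common to all 14 lists 26.4% held it. A match is a run of letters and was not tested as a binding site.

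By list the share of summit-bearing windows with the core was 3.69% to 7.46% for Panc10.05 lists and 8.87% to 24.7% for BxPC3 lists, without overlap. The means were 5.06% ± 1.65 and 16.2% ± 6.98 (SD, n = 4 each; exact permutation p = 0.0286, adjusted over 6 comparisons 0.0833). Without any 1 of the Panc10.05 lists the difference was −11.9 to −10.7 points (exact permutation p = 0.0571). Within BxPC3 the share was 8.87% and 12.5% in the longer P1-α2 lists and 18.8% and 24.7% in the shorter P2-α8 lists. At full list length AsPC1 pan-antibody lists had 4.49% to 8.58%, which did not differ from the induced lines beyond their spread (exact permutation p = 0.292). The difference was −3.77 points, and the induced side pools Panc10.05 and BxPC3, which did not overlap. It was larger in size at equal list length and had the other sign under the stricter q limit, as given further below. Equal shares are thus not shown. P1-antibody lists had 14.7% to 40.0% of 5 to 218 windows, against 4.49% to 8.58% for the pan antibody in the same genotypes (exact permutation p = 0.0556, the smallest possible; adjusted 0.0833). These P1-antibody lists held 260 to 5200 peaks and the pan-antibody lists 12345 to 24295, so antibody and list length differ together. The median number of CG dinucleotides per 300-base window was 22 to 26 for Panc10.05 lists and 7 to 19 for BxPC3 lists, beside 21 over all windows. These lines also did not overlap in CG (exact permutation p = 0.0286, adjusted 0.0833), and both measures were taken from the same windows.

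In all 14 pan-antibody lists windows whose summit was above the median fold held the core more often than windows whose summit was below it. The mean difference was 7.22 percentage points (exact sign-flip p = 0.000122, the smallest possible). In the second Panc10.05 P1-α2 list the shares were 11.0% and 1.57%, and in the second BxPC3 P2-α8 list 26.9% and 23.2%. CG dinucleotides were fewer in the windows of the stronger summits in 14 of 14 lists, for example 20 against 26 in the second Panc10.05 P1-α2 list. Other motifs searched on both strands were the AP-1 site TGACTCA, the ETS site CCGGAAGT and the GC box GGGCGG. They stood in 6.47%, 8.96% and 70.2% of windows with a summit in at least 1 pan-antibody list, in 3.59%, 4.72% and 53.9% of windows with none, and in 4.01%, 5.34% and 56.3% of all windows. BxPC3 differed from Panc10.05 in the GC box as well: 34.3% of the windows with a summit in every BxPC3 list held it, against 59.2% in Panc10.05. The GC box and the CG count overlap by construction.

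**Figure D5:**
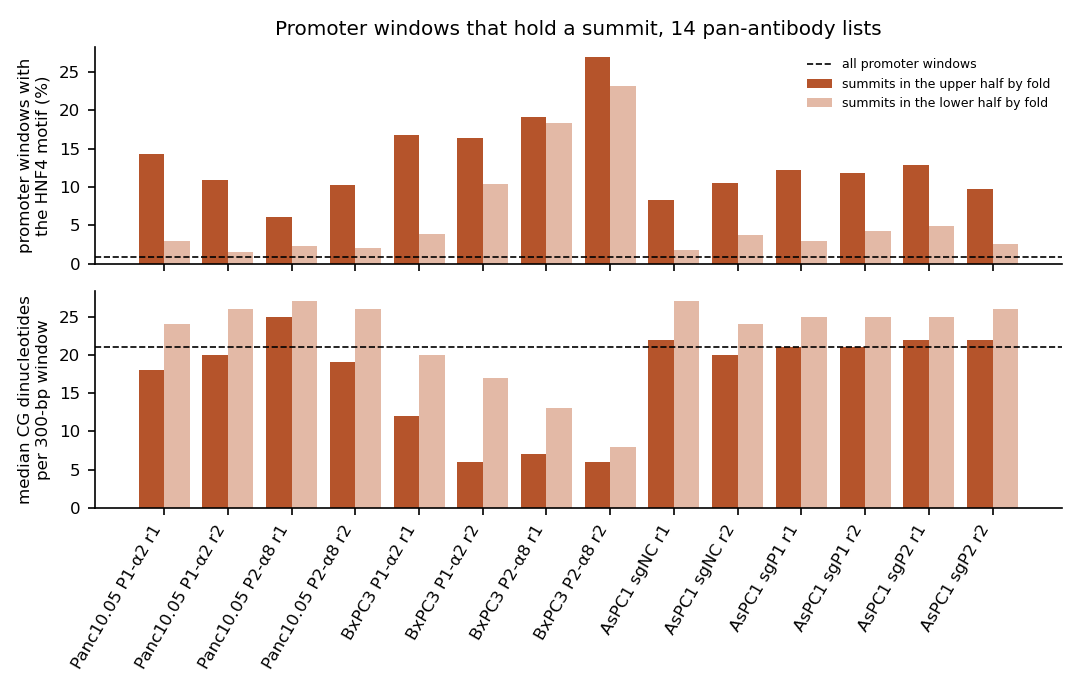
Bars give, for each pan-antibody list, the percentage of summit-bearing promoter windows with the HNF4 core (top) and their median number of CG dinucleotides per 300-base window (bottom), for summits above (dark) and below (light) the list's median fold; the dashed line is the value over all 22199 windows. Dark bars are higher than light bars on top and lower at the bottom in all 14 lists.

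Gene lists were described by counts beside all genes, of which 39.9% had an end peak in at least 1 pan-antibody list. Both lists of a group had an end peak at 12.7% of all genes in Panc10.05 P1-α2, 17.5% in P2-α8, 9.07% in BxPC3 P1-α2, 2.75% in BxPC3 P2-α8, 12.3% in sgNC, 9.01% in sgP1 and 9.82% in sgP2. Fatty acid oxidation and ketogenesis had the highest share of these lists, 23 of 27 genes (85.2%) in any pan-antibody list. Its median percentile over all gene and list pairs was 48.1, against 42.5 for all genes. Per group in the same order 12, 14, 10, 4, 12, 10 and 9 of its 27 genes had an end peak in both lists. HADHA and HADHB, the subunits of the mitochondrial trifunctional protein, share a divergent promoter and a peak at 73.8 to 99.4 in the pan-antibody lists and 83.5 to 98.1 with the P1 antibody. ETFA, an electron carrier, had 78.9 to 98.3 with the pan antibody.

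Tight junction genes had an end peak in any pan-antibody list at 18 of 22, and in both lists at 10, 11, 8, 4, 8, 6 and 7 of 22 per group. The scaffold gene CGN had a peak in all 18 lists, at 98.2 to 99.9 in AsPC1 with the pan antibody, 67.1 to 95.4 in BxPC3 and 42.0 to 71.8 in Panc10.05. AsPC1 lay above both other lines there without overlap. CLDN4 and CLDN7, claudins of the junction strand, had 84.2 to 98.6 and 91.4 to 97.4 in AsPC1 with the pan antibody and at most 90.6 and 84.6 in the induced lines. MARVELD3, a junction membrane protein, had 93.0 and 96.2 in BxPC3 P1-α2, 78.9 and 82.2 in Panc10.05 P1-α2, and at most 79.7 in the 5 AsPC1 pan-antibody lists that had it. Brush border genes had 17 of 26, among them ANPEP, an aminopeptidase, at 71.4 to 99.5, and VIL1, the actin bundler villin, at 91.2 to 98.5 in AsPC1 with the pan antibody and 22.6 to 88.8 in the induced lists that had it. The trehalase gene TREH, whose core is printed above, ranked at 88.7 to 97.2 for Panc10.05 and 69.1 to 94.7 for BxPC3. It ranked at 23.7 to 68.2 for AsPC1 with the pan antibody. The median percentile over all gene and list pairs was 73.0 for brush border and 67.1 for tight junction genes, against 42.5 for all genes.

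Among liver-type transcription factors 14 of 24 genes (58.3%) had an end peak in any pan-antibody list. Some lists of general cell functions had similar shares, with 27 of 48 (56.3%) for the spliceosome and 42 of 76 (55.3%) for the respiratory chain. Mitochondrial ribosomal proteins had 42 of 77 (54.5%). Other such lists had lower shares, with 10 of 20 for aminoacyl-tRNA synthetases and 19 of 40 (47.5%) for replication origin and fork. Cytosolic ribosomal proteins had 40 of 85 (47.1%), the proteasome 20 of 48 (41.7%) and replication-dependent histones 22 of 69 (31.9%). NR1I2, a sensor of foreign compounds, had 58.8 to 89.1 in AsPC1 with the pan antibody, at most 23.9 in BxPC3 and no end peak in Panc10.05. Apolipoprotein genes had 8 of 19 in any pan-antibody list, with 6, 5 and 3 in both lists of Panc10.05 P1-α2, Panc10.05 P2-α8 and BxPC3 P1-α2 and at most 1 in the other pan-antibody groups. APOC3 had 77.8, 95.2, 98.2 and 97.2 in Panc10.05, 39.5 and 62.1 in BxPC3 P1-α2, and no end peak elsewhere. The sugar metabolism list had 19 of 28, among them PCK1, the entry enzyme of gluconeogenesis, at 74.5 to 96.5 in BxPC3, 12.5 to 78.0 in Panc10.05 and at most 44.7 in AsPC1. The glycolysis genes PGAM1 and PFKM each had an end peak in 1 BxPC3 list alone, at 29.1 and 13.7, and at 60.3 to 80.7 and 62.8 to 78.6 in the AsPC1 pan-antibody lists that had it. The gastric and mucin list had 10 of 24, with MUC13 at 87.1 to 94.2 in AsPC1 with the pan antibody, 46.4 and 52.6 with the P1 antibody in sgP2, and at most 81.3 in the induced lines. Other members of it ranked higher in the induced lines: MUC3A reached 87.7 there and at most 20.5 in AsPC1, and PGC, which encodes a pepsinogen, reached 83.2 there and at most 36.9 in AsPC1. The basal and squamous list had 14 of 25, at a low median percentile of 22.8, and its members LAMB3, S100A2, VIM and ZEB1 had mean pan-antibody percentiles of 22.8 to 39.0.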

How the data were processed

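HNF4α ChIP-seq peak lists of 18 libraries were analysed, 1 per library, as deposited. Per the submitters' processing notes the tools were Bowtie2 2.2.9 and MACS2 2.2.7 and the builds hg38 and mm10, with no role given. The lists were read as GRCh38, and the BxPC3 P2-α8 libraries were grouped by their genotype label, which reads P2-a8 where their titles read P1-a8. Each deposited row holds a score, a fold enrichment and −log10 p and −log10 q values, which the authors took from their peak caller, and the offset of the summit. Peaks were called by the authors in each library. Fold, −log10 values and width served for ranks, filters and descriptions inside each list.

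A gene-end peak had its summit within 1000 bp of either end of a RefSeq GRCh38.p14 protein-coding gene. Gene starts were to be used had the promoter table covered 90% of genes; it covered 79.1%. A gene's percentile is that of its strongest end peak. Equal-length comparisons keep the peaks of highest fold. Overlap means at least 1 bp. Shares, percentile differences and log2 width ratios were compared over libraries by two-sided exact permutation tests, or exact sign-flip tests within lists, with Benjamini-Hochberg adjustment over comparisons of the same measure. With 2 libraries per group the precision is limited by their number, and read depth is unknown.

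Named genes were the 10 of highest mean percentile among genes in every pan-antibody list, the 5 of highest mean percentile in all 18 lists, up to 4 per comparison and direction among genes in every list of one side and none of the other, up to 4 per gene list, and HNF4A. Not every gene that this rule names is reported here. Members, gene lists and motifs were chosen with earlier results of these data known. Replicate numbers did not pair libraries (correlation of deviations −0.0855 to 0.0546). Alternatives changed the window, the rule, the q threshold, the rank, the list length and the libraries. Python 3.11.15, numpy 2.4.6, pandas 2.3.3 and bedtools 2.31.1 were used. The assignment of peaks was tested on simulated data, with 4 of 4 lists of 4000 peaks recovered.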

Additional observations from a re-analysis of the deposited data

Results flagged for a closer look

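Among the 4 Panc10.05 lists the difference in median fold percentile between gene-end and other peaks was −8.87 in the first P1-α2 list and −15.5 to −15.1 in the other 3. Its gap to the nearest list exceeds Dixon's 95% critical value for 4 samples, which chance exceeds in about 1 in 20 groups. This list is the shortest of the 4, with 24828 peaks, and at that equal length the 2 P1-α2 lists had −8.87 and −4.13 and the 2 P2-α8 lists −5.79 and −4.04.

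The same measure moved in opposite directions between AsPC1 sgP2 and sgNC with the 2 antibodies. With the pan antibody both sgP2 lists were closer to 0 than both sgNC lists, by 3.54 percentile points on average, and with the P1 antibody both sgP2 lists were lower, with a mean difference of −2.80 points. The 2 differences lie 6.33 points apart, and this was not tested. Neither sign held under every setting: at equal length the pan-antibody difference was −0.462 points, and the P1-antibody difference was 1.45 points by −log10 p and 8.86 points with promoter-table starts. The P1-antibody sgNC values rest on 86 and 33 gene-end peaks.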

How the results depend on the processing

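Of the alternatives' values 540 kept their direction and side of the threshold, 48 reversed, 64 moved, 37 weakened and 4 strengthened. The AsPC1 excess over the induced lines in share kept its direction under each alternative run. Gene starts against either gene end, where starts are the main rule, was not run because either end is the main rule.

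With lists of equal length, the share difference was −0.883 for BxPC3 isoforms, 1.83 for sgP1 minus sgNC, 0.167 for sgP1 minus sgP2 and 0.505 for the difference of isoform differences. Keeping peaks whose −log10 q reached 8 or 20, it was 0.582 and 0.902 for sgP1 minus sgNC, and 0.0155 at 8 for sgP1 minus sgP2. Any overlap with the window gave −0.0369 for sgP2 minus sgNC.

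The percentile difference at equal length was −1.59 for Panc10.05 isoforms, 5.97 for BxPC3 isoforms, −0.426 for sgP1 and −0.462 for sgP2 minus sgNC, 1.09 for Panc10.05 minus BxPC3 and −2.33 for AsPC1 minus the induced lines. For the last, 2000 bp gave 2.1997 and the −log10 p rank 1.64. A −log10 q of at least 8 and 20 gave −0.0802 and −2.58 for sgP1 minus sgP2, and 20 gave 2.18 for Panc10.05 minus BxPC3 and −2.35 within the 18 lists. For the P1 antibody, sgP2 minus sgNC was 1.45 by −log10 p and 8.86 with promoter-table starts.

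The log2 width difference was 0.0177 (500 bp) and 0.00134 (2000 bp) for sgP1 minus sgNC. For sgP2 minus sgNC it was −0.00623 (2000 bp), −0.0101 (any overlap), −0.0104 (table starts) and −0.0426 (equal length). For sgP1 minus sgP2 it was 0.00757 (2000 bp) and 0.00648 (any overlap). It was −0.208 for P1-antibody sgP2 minus sgNC at a −log10 q of 20, 0.0202 (500 bp) and 0.0301 (20) for P1 minus pan antibody, 0.131 at equal length for Panc10.05 minus BxPC3, 0.0226 for AsPC1 minus induced at 8, and 0.0223 within lists at 500 bp.

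Genes on 1 side only numbered, at equal length, 223 and 229 (Panc10.05 isoforms), 62 and 65 (BxPC3 isoforms), 147 and 99 (sgP1 and sgNC), 154 and 81 (sgP2 and sgNC), 101 (sgP2 without sgP1), 11 and 4 (P1 antibody), 0 (pan antibody alone), 128 (Panc10.05) and 293 and 24 (AsPC1 and induced). At 500 bp they numbered 470 and 4 (BxPC3), 28 (sgP1), 24 (sgP2), 223 and 0 (P1 antibody), 521 (pan antibody alone), 13 (BxPC3 without Panc10.05) and 30 (induced). At 2000 bp they numbered 1312 (BxPC3 P1-α2), 56 (BxPC3 without Panc10.05) and 105 (induced). These counts have no region share beside them, and the cause was not tested.

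The replicate block left Panc10.05 minus BxPC3 at 5.30 points of share, 0.12 in log2 width and −11.1 points of motif share, each with an exact permutation p of 0.0556. Replicate numbers did not pair the libraries. Motif share of AsPC1 minus induced was 1.501 at a −log10 q of 20 and −9.09 at equal length. The overlap of AsPC1 with BxPC3 among peaks above the median fold differed by −2.30.

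Leaving out each list gave shares of −0.0942 to 0.732 (BxPC3 isoforms), −1.59 to 1.04 (sgP1 minus sgNC), −1.17 to 1.46 (sgP2 minus sgNC) and −0.851 to 0.00907 (sgP1 minus sgP2). Percentile differences were −0.290 to 6.36 (Panc10.05 isoforms), −5.87 to −3.07 (Panc10.05 minus BxPC3) and 3.85 to 5.28 (AsPC1 minus induced). Width differences were −0.0134 to 0.0190, −0.0237 to 0.0208, −0.0167 to 0.0279, −0.0240 to 0.00998, −0.0624 to 0.0276 and 0.0969 to 0.140 for BxPC3 isoforms, the 3 guide pairs, the antibodies and Panc10.05 minus BxPC3. Gene counts were 158 to 372 and 590 to 1761, 1053 to 1719 and 9 to 32, 40 to 196 and 518 to 2057, 38 to 245 and 404 to 1830, 134 to 400 and 286 to 668, 381 to 761 and 1 to 3, 580 to 1052 and 22 to 51, and 52 to 80. Their order is Panc10.05 isoforms, BxPC3 isoforms, sgP1 and sgNC, sgP2 and sgNC, sgP1 and sgP2, P1-antibody sgP2 and sgNC, Panc10.05 and BxPC3, and the induced side against AsPC1. The gene counts just given have no region share beside them. Motif share was −13.6 to −8.31 for Panc10.05 minus BxPC3. AsPC1 overlap differed by 12.4 to 13.2 in Panc10.05 and −10.6 to −8.99 in BxPC3.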
